A study of Homo sapiens and Mus musculus with 22 samples.

Results

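The genes described here are 43 genes of mitosis and the kinetochore, taken by symbol from 3 RNA-seq tables of 24549, 23760 and 23849 genes. All 43 were present in both human tables and 42 in the mouse table, where the rule found no KIF4A row. The mouse orthologue is named Kif4 there, so it was measured but is not among the members counted. They fall into 8 roles: cyclins, CDK1 and mitotic entry; the spindle checkpoint; the kinetochore and centromere; the chromosomal passenger complex; anaphase promotion and separase; motors and spindle microtubules; the central spindle and cytokinesis; and chromosome structure. Values are FPKM, fragment counts scaled by transcript length and by library size.

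Cells enter mitosis when cyclin B and CDK1 become active together with Polo-like and Aurora kinases. Spindle microtubules then attach to kinetochores, whose outer NDC80 complex (NDC80, NUF2, SPC24 and SPC25) holds the microtubule end, while the chromosomal passenger complex (AURKB, INCENP, BIRC5 and CDCA8) releases faulty attachments. Unattached kinetochores keep the spindle checkpoint on, and once it is satisfied CDC20 activates the anaphase-promoting complex, securin (PTTG1) is degraded and separase (ESPL1) opens cohesin. Most of these transcripts peak in G2 and M phase in cycling cells and are controlled by the DREAM and B-MYB complexes and FOXM1 through promoter elements of the CHR and CCAAT type.

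The first table held U2OS cells, a human osteosarcoma line, as wild type (WT) and as 2 SETDB1 knockouts named KO1 and KO2, each with 2 libraries and all labelled mock. SETDB1 is a histone H3 lysine 9 methyltransferase. The second table held U2OS cells with a vector or labelled ATG5 KD (a knockdown of the autophagy gene ATG5), each mock or treated with BIX-01294 (BIX), an inhibitor of the H3K9 methyltransferases G9a and GLP, at 10 µM for 12 h. Each of its 4 groups has 1 value column that stands for 2 replicates. The third table held L929 cells, a mouse fibroblast line, labelled cGAS WT or cGAS KO (cGAS is a sensor of cytosolic DNA), mock or BIX, with 1 value per group. The sources do not say what mock cells were given, and the protocol text names the drug for every RNA sample, so the mock label was followed. The labels do not say whether replicates came from separate cultures, or whether KO1, KO2 and the other lines are single clones, so p-values measure the spread between these samples only. The 8 ChIP samples were not used here.

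SETDB1 transcript was 9.98 and 9.32 FPKM in WT, 5.90 and 7.03 in KO1 and 6.89 and 7.35 in KO2, so it was lower in all 4 KO libraries but present in each. ATG5 transcript went against its label with BIX: it was 11.3 (mock) and 12.3 (BIX) FPKM in vector cells and 10.1 and 13.4 in cells labelled ATG5 KD. The cGAS gene (Mb21d1) also did: it was 2.82 (mock) and 3.47 (BIX) in cells labelled WT and 1.19 and 4.41 in cells labelled KO. Of 7 mesenchymal markers, 6 in U2OS and 7 in L929 reached 1 FPKM. Of 5 osteoblast markers, 3 reached 1 FPKM in U2OS: RUNX2, ALPL and BGLAP, the last in a row joined with PMF1. IBSP and SP7 were under 0.1 FPKM in every U2OS library. Of 4 epithelial markers, 3 reached 1 FPKM in U2OS of the BIX experiment, almost all of the sum being the keratin KRT8. In L929, 2 of 3 endothelial markers (VWF and PECAM1) and 1 of 4 leukocyte markers (CD68) reached 1 FPKM. Read counts are not given, so absolute depth is unknown. From the smallest steps between low values, the cGAS WT BIX library had about 0.745 times the reads of its mock library, and the other L929 libraries were within 1.02 times of that mock library.

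Promoters are shown first because CHR and CCAAT elements just before the start are what these genes are known to share. RefSeq promoter sequences (GRCh38.p14) matched 36 of the 43 members. AURKA, FOXM1, BUB3, TTK, BIRC5, UBE2C and TPX2 had no entry. CHR-type letters (TTTGAA or TTTAAA, both strands) were found in the 250 bases before the start of 25 of the 36 members, 69.4%, against 21.9% of 35116 promoters of the same length. CCAAT on either strand was found in 28 members, 77.8%, against 32% of all promoters. At least 2 CCAAT matches occurred in 50% of members and 9.53% of all promoters, and both motifs in 61.1% and 7.64%.

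The sequences below are the 150 bases before the start, 5′ to 3′ on the gene's strand. Capitals mark CHR-type and CCAAT matches on either strand, so ATTGG is CCAAT on the other strand; in CDCA8 the 2 motifs overlap, and in PTTG1 a CCAAT and an ATTGG overlap. They were chosen after the values were seen. The first 4 belong to genes that fell with BIX, SPC24 to the gene lowest in U2OS, and the last 3 to genes that did not pass the test over both lines. KIF20A lies at chr5:138178962-138179111 (+), ESPL1 at chr12:53268149-53268298 (+), CDC20 at chr1:43358831-43358980 (+) and CDCA8 at chr1:37692366-37692515 (+). SPC24 lies at chr19:11155783-11155932 (-), PTTG1 at chr5:160421705-160421854 (+), PRC1 at chr15:90994536-90994685 (-) and NUF2 at chr1:163321804-163321953 (+).
KIF20A: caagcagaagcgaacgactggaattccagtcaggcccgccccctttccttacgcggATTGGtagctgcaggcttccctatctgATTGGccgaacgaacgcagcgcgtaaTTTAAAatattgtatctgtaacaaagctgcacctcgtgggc
ESPL1: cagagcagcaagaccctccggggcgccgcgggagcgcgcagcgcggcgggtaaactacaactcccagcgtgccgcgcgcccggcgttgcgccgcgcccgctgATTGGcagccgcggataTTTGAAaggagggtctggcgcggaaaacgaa
CDC20: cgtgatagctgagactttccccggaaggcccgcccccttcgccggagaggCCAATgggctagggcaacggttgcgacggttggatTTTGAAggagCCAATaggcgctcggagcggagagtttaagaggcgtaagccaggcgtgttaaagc
CDCA8: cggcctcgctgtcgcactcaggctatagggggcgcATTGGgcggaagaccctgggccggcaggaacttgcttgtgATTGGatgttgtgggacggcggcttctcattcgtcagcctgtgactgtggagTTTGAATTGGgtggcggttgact
SPC24: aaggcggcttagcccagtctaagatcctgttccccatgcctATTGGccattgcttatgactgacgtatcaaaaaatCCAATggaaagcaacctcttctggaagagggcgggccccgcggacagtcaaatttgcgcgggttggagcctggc
PTTG1: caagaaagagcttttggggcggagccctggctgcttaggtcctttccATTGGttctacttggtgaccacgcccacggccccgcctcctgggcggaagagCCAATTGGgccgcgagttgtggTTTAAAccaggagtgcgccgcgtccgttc
PRC1: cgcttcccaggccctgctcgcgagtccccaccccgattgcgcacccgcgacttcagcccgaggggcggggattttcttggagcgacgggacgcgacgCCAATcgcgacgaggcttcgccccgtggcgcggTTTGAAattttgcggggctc
NUF2: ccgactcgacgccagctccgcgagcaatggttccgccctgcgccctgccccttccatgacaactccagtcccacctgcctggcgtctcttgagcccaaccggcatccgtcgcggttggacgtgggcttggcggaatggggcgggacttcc

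In the sequences shown, all but SPC24 and NUF2 hold a CHR-type match. SPC24 holds 2 CCAAT matches and no CHR-type match, and NUF2 holds neither. Among the 15 matched members that fell with BIX over 4 backgrounds, 11 hold a CHR-type match and 11 a CCAAT match. Among the 20 that were tested and did not pass, 13 and 16 do. A match is a description of letters and says nothing about binding.

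**Figure D1:**
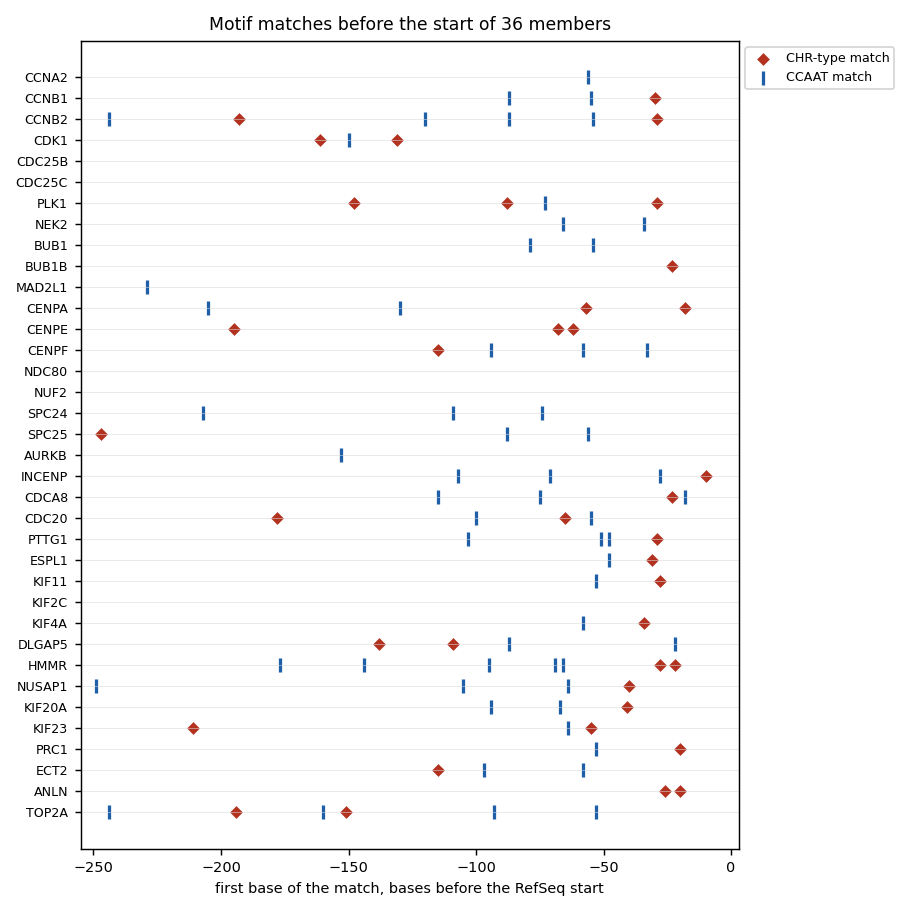
Position of CHR-type matches (red diamonds) and CCAAT matches (blue bars) in the 250 bases before the RefSeq start of 36 members; the x axis gives the first base of a match, in bases before the start. Matches gather in the last 100 bases, where 52.8% of members hold a CHR-type match against 8.24% of all promoters.

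BIX was compared with mock in 4 backgrounds: vector and ATG5 KD-labelled U2OS, and cGAS WT- and KO-labelled L929. One value per group allows no test within a background. The 4 differences in log2(FPKM + 1) were therefore tested against 0 with limma over 11072 genes matched by symbol between human and mouse, with the Benjamini-Hochberg adjustment over all of them and a threshold of 0.05. Backgrounds of 1 line share their cell line, and the labels do not say whether they are independent cultures. These p-values are too small to the extent that they are not independent.

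With BIX, 16 of the 42 members tested fell and 0 rose; over all genes, 10.3% fell and 11.6% rose. The median log2 difference of the members was -0.60, against -0.01 for all genes. At an unadjusted p under 0.05, 29 members were lower and 0 higher, against 18.9% lower and 19.4% higher over all genes. With columns scaled to equal sums 30 members fell, and 17.4% of all genes fell and 8.62% rose. The count depended on the backgrounds: it was 3 without ATG5 KD-labelled cells, 4 without vector, 6 without cGAS WT and 11 without cGAS KO-labelled cells. The shares of all genes that fell were then 0.862%, 1.35%, 4.75% and 4.9%. The summed mesenchymal markers were also lower with BIX, 2228 (mock) and 1763 (BIX) FPKM in vector and 1941 and 1669 in ATG5 KD-labelled cells. Of the 6 that reached 1 FPKM, 5 were lower in vector and 4 in ATG5 KD-labelled cells. CD44 was higher in both (48.8 and 58.5, 50.0 and 82.0), and SPARC in ATG5 KD-labelled cells (385 and 406). The 4 epithelial markers summed to 404 and 486 in vector and 502 and 645 in ATG5 KD-labelled cells: KRT8 was higher with BIX, the row that joins KRT19 with KRT14 and KRT16 was lower in both (18.8 and 12.0, 11.7 and 8.30), and EPCAM was higher in vector cells only. In L929 the 3 endothelial markers summed to 0.501 (mock) and 3.51 (BIX) in cGAS WT and 0.135 and 1.56 in cGAS KO-labelled cells, with CDH5 at 0 in 3 of these 4 libraries. The part of these markers in the result was not tested. In bulk samples, fewer cells in mitosis and less of each RNA per cell cannot be told apart.

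**Figure D2:**
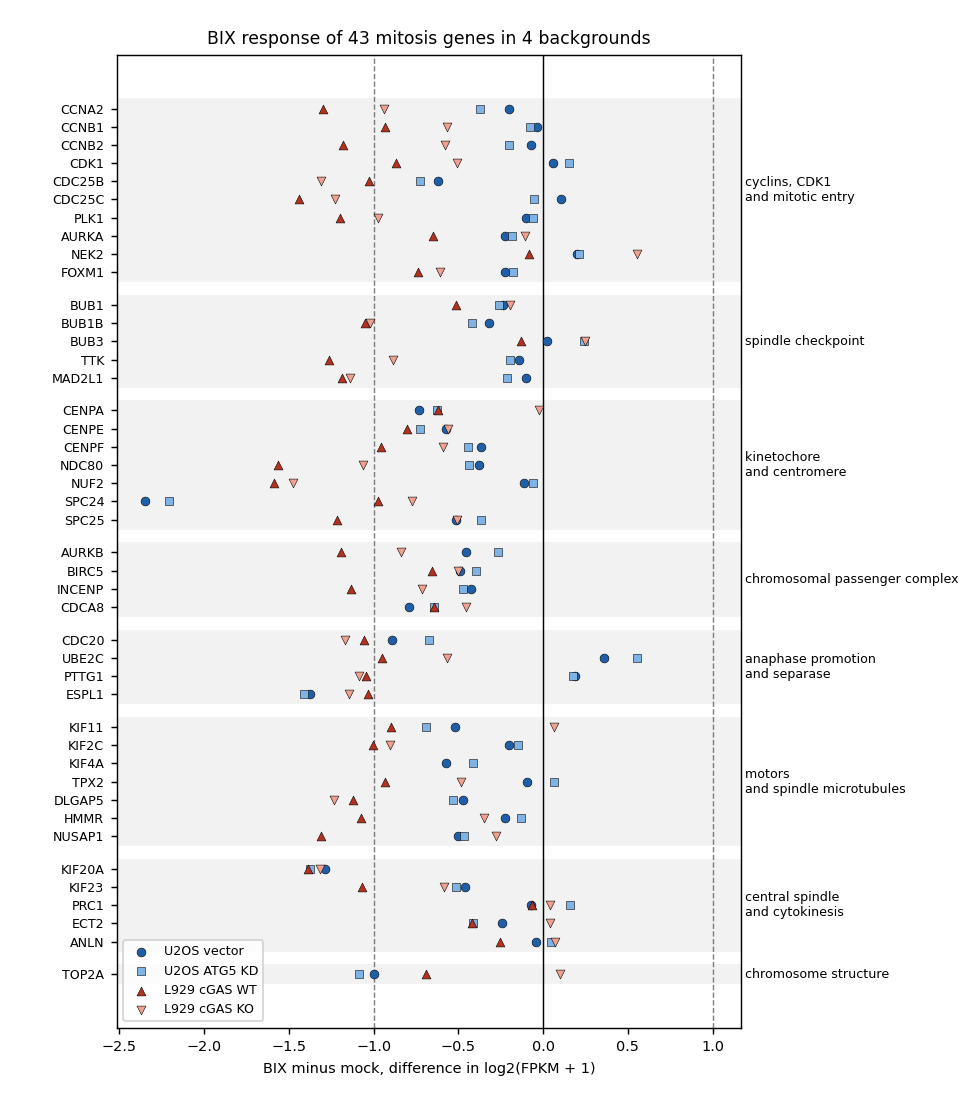
Difference in log2(FPKM + 1) between BIX and mock (x axis) for each member, grouped by role, with 1 point per background; dashed lines mark 2-fold. KIF20A and ESPL1 are the 2 members beyond the 2-fold line in all 4 backgrounds, and the L929 points of genes such as CCNA2, PLK1, TTK and MAD2L1 lie to the left of the U2OS points.

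KIF20A, the kinesin that carries the passenger complex to the central spindle, gave 35.6 (mock) and 14.1 (BIX) FPKM in vector cells, and 44.2 and 16.4 in ATG5 KD-labelled cells. In L929 it gave 34.5 and 12.6 in cGAS WT cells and 34.6 and 13.3 in cGAS KO-labelled cells. All 4 BIX values lay below all 4 mock values, at 41.1%, 38.5%, 38.3% and 40.1% of mock with 1 FPKM added to both. The log2 difference was -1.34 (SE 0.106, adjusted p = 0.00632, limma). KIF20A had the smallest p of the 42 members in this fit, and it passed the threshold under all 10 other settings tried, with an adjusted p of at most 0.041.

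ESPL1, the protease separase, gave 13.4 (mock) and 4.56 (BIX) FPKM in vector cells and 13.3 and 4.39 in ATG5 KD-labelled cells. It gave 33.0 and 15.6 in cGAS WT cells and 34.5 and 15.1 in cGAS KO-labelled cells. BIX values lay below mock in each background, and the lines differ in level, so the U2OS mock values lie below the L929 BIX values. The log2 difference was -1.24 (SE 0.129, adjusted p = 0.00672, limma).

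CDC20, the activator of the anaphase-promoting complex, gave 172 (mock) and 92.1 (BIX) in vector cells and 232 and 145 in ATG5 KD-labelled cells. It gave 115 and 54.8 in cGAS WT cells and 93.2 and 40.9 in cGAS KO-labelled cells. Each BIX value was below its own mock value, and the log2 difference of CDC20 was -0.95 (SE 0.112, adjusted p = 0.00761, limma). The other 2 anaphase genes gave another pattern. PTTG1 (securin) gave 252 and 287 in vector cells, 325 and 366 in ATG5 KD-labelled cells, 130 and 62.5 in cGAS WT cells and 153 and 71.2 in cGAS KO-labelled cells. UBE2C, a ubiquitin-conjugating enzyme of the same ligase, gave 198 and 254, 226 and 331, 341 and 176, and 281 and 189 in the same order. Both were higher with BIX in U2OS and lower in L929, and neither passed the test over 4 backgrounds (adjusted p = 0.252 and 0.688, limma). With columns scaled to equal sums, PTTG1 was lower with BIX in ATG5 KD-labelled cells as well.

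SPC24, a subunit at the inner end of the NDC80 complex, gave 22.2 (mock) and 3.56 (BIX) FPKM in vector cells and 24.1 and 4.43 in ATG5 KD-labelled cells. In L929 it gave 19.6 and 9.47 in cGAS WT cells and 26.2 and 14.9 in cGAS KO-labelled cells. The mock levels of the lines overlap, and the BIX levels do not: both U2OS values lie under both L929 values. The log2 difference over 4 backgrounds was -1.58 (SE 0.308, adjusted p = 0.0204, limma). Its mean was -2.28 in U2OS and -0.87 in L929. The gap between the lines was -1.40 (SE 0.159, adjusted p = 0.0151, limma).

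The other subunits of the NDC80 complex moved differently. NDC80, the subunit that contacts microtubules, gave 65.4 and 50.1 FPKM in vector cells, 82.6 and 60.8 in ATG5 KD-labelled cells, 37.1 and 11.9 in cGAS WT cells and 45.8 and 21.4 in cGAS KO-labelled cells (mock, then BIX). NUF2, its partner, gave 24.4 and 22.5, 29.6 and 28.3, 36.6 and 11.5, and 37.4 and 12.8 in the same order. NDC80 passed the test (log2 -0.86, adjusted p = 0.0406, limma), SPC25 did too (log2 -0.65, adjusted p = 0.0406), and NUF2 did not (log2 -0.81, adjusted p = 0.112). SPC24 as a share of the summed FPKM of the 4 subunits was 14.5% in vector mock and 3.4% with BIX, and 13.1% and 3.39% in ATG5 KD-labelled cells. In L929 that share was 13.5% and 17.3% in cGAS WT cells and 15.7% and 16.7% in cGAS KO-labelled cells. SPC24 thus took a smaller share with BIX in both U2OS backgrounds and in neither L929 background.

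Of the 7 kinetochore and centromere members, 5 fell, against 10.3% of all genes: SPC24, NDC80, SPC25, CENPE and CENPF. All 7 were lower at an unadjusted p under 0.05 in limma, against 18.9%, with a median of -0.67. CENPE, a kinesin that moves chromosomes to the spindle equator, gave 17.5 and 11.4 FPKM in vector cells, 17.8 and 10.3 in ATG5 KD-labelled cells, 22.3 and 12.3 in cGAS WT cells and 23.8 and 15.8 in cGAS KO-labelled cells (log2 -0.67, adjusted p = 0.0161, limma). Its row in the ATG5 table is joined with BDH2 in 1 locus, so those values are not of CENPE alone. CENPF, a large kinetochore protein, fell by 0.59 (adjusted p = 0.0363), and CENPA, the centromeric histone H3, had a log2 difference of -0.50 (adjusted p = 0.0579).

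All 4 members of the chromosomal passenger complex fell, against 10.3% of all genes, with a median log2 difference of -0.66. AURKB, its kinase, gave 53.6 and 38.8 FPKM in vector cells, 60.5 and 50.2 in ATG5 KD-labelled cells, 47.6 and 20.2 in cGAS WT cells and 56.6 and 31.3 in cGAS KO-labelled cells (mock, then BIX). INCENP, its scaffold, gave 23.1 and 17.0, 24.5 and 17.4, 67.2 and 30.1, and 61.3 and 37.0 in the same order. BIRC5 (survivin) gave 59.3 and 41.9, 92.6 and 70.2, 164 and 103.6, and 139.5 and 98.3. Every BIX value of these 3 genes was below its own mock value, and AURKB (log2 -0.69, adjusted p = 0.0393), INCENP (-0.69, 0.0274), BIRC5 (-0.51, 0.017) and CDCA8 (borealin; -0.63, 0.0145) all passed limma's test. Each lost its call in at least 2 of 10 other settings, with adjusted p-values of at most 0.113.

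Among cyclins, CDK1 and entry genes, 1 of 10 fell, and 5 were lower at an unadjusted p under 0.05 in limma. Over all genes the shares were 10.3% and 18.9%, and the median log2 difference of the 10 was -0.47. CDC25B, a phosphatase that activates CDK1, gave 51.6 and 33.2 FPKM in vector cells, 59.8 and 35.8 in ATG5 KD-labelled cells, 61.4 and 29.7 in cGAS WT cells and 89.0 and 35.2 in cGAS KO-labelled cells (log2 -0.92, adjusted p = 0.0123, limma). CCNB1 (cyclin B1), the partner of CDK1, gave 122 and 119, 163 and 154, 104.4 and 54.3, and 89.4 and 60.1 in the same order. Its U2OS values are close to mock and its L929 values are not, and it did not pass the test (log2 -0.40, adjusted p = 0.141). NEK2, a centrosome kinase, gave 17.5 and 20.3, 23.4 and 27.2, 50.9 and 47.9, and 38.7 and 57.4. It had the highest log2 difference of all members, 0.22 (adjusted p = 0.267, limma), and was higher with BIX in 3 of 4 backgrounds, or in 2 with columns scaled to equal sums.

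In the spindle checkpoint, 1 of 5 fell, and 4 were lower at an unadjusted p under 0.05 in limma. The median log2 difference of the 5 was -0.62, and 10.3% and 18.9% of all genes were lower at these thresholds. BUB1B (BUBR1), which inhibits CDC20, gave 35.7 and 28.4 FPKM in vector cells, 38.2 and 28.4 in ATG5 KD-labelled cells, 36.9 and 17.3 in cGAS WT cells and 33.2 and 15.8 in cGAS KO-labelled cells (log2 -0.70, adjusted p = 0.0352, limma). In both human tables its row is joined with PAK6. BUB3, its binding partner, gave 57.4 and 58.3, 67.3 and 79.7, 85.9 and 78.3, and 85.9 and 102 in the same order. BUB3 was higher with BIX in 3 of 4 backgrounds by at most 0.25 on the log2 scale and did not pass the test (0.09, adjusted p = 0.535, limma); in vector cells its sign turned with columns scaled to equal sums.

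Of the motors and spindle microtubule genes, 1 of 6 fell, and 4 were lower at an unadjusted p under 0.05 in limma. Their median log2 difference was -0.54, and 10.3% and 18.9% of all genes were lower at these thresholds. DLGAP5 (HURP), which stabilises kinetochore microtubules, gave 62.7 and 44.8 FPKM in vector cells, 80.5 and 55.4 in ATG5 KD-labelled cells, 29.3 and 12.9 in cGAS WT cells and 34.2 and 14.0 in cGAS KO-labelled cells (log2 -0.84, adjusted p = 0.0218, limma). NUSAP1, a microtubule-bundling protein, gave 128 and 90.0, 127 and 91.8, 31.8 and 12.2, and 41.3 and 33.9. NUSAP1 was below mock in each background and did not pass the test (log2 -0.64, adjusted p = 0.0564). Kif4, the mouse row not matched to KIF4A, gave 25.8 and 11.4 FPKM in cGAS WT cells and 31.5 and 21.8 in cGAS KO-labelled cells.

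In the central spindle and cytokinesis group, 2 of 5 fell, KIF20A and KIF23, against 10.3% of all genes. At an unadjusted p under 0.05 in limma 2 were lower, against 18.9%, and the group median was -0.26. KIF23, the kinesin of centralspindlin, gave 68.2 and 49.2 FPKM in vector cells, 75.6 and 52.7 in ATG5 KD-labelled cells, 29.8 and 13.7 in cGAS WT cells and 35.2 and 23.2 in cGAS KO-labelled cells (log2 -0.66, adjusted p = 0.0241, limma). PRC1, which bundles the midzone microtubules that KIF20A and KIF23 work on, gave 69.0 and 65.7, 79.1 and 88.5, 100.1 and 95.5, and 97.9 and 100.6. ANLN (anillin), which organises the contractile ring, gave 64.7 and 62.9, 83.3 and 86.1, 64.6 and 54.0, and 62.2 and 65.2. BIX and mock values overlapped across backgrounds for PRC1 and for ANLN, with log2 differences of 0.02 (adjusted p = 0.911) and -0.05 (adjusted p = 0.763, limma).

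TOP2A, which untangles sister DNA before anaphase, gave 139.8 and 69.6 FPKM in vector cells, 134 and 62.8 in ATG5 KD-labelled cells, 119.7 and 73.9 in cGAS WT cells and 121 and 129.6 in cGAS KO-labelled cells. It was close to or past 2-fold lower in both U2OS backgrounds, and in cGAS KO-labelled cells its BIX value was above mock, or below it with columns scaled to equal sums. It did not pass the test over 4 backgrounds (log2 -0.67, adjusted p = 0.0652, limma).

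**Figure D3:**
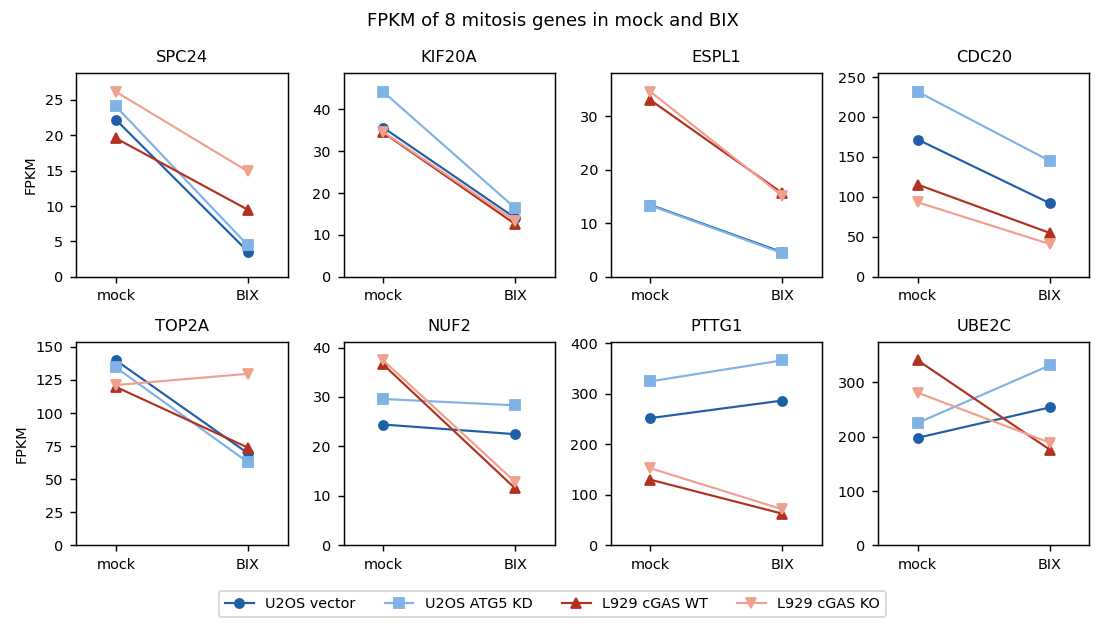
FPKM (y axis, from 0) of 8 members in mock and BIX, 1 line per background and 1 value per point. SPC24, KIF20A, ESPL1 and CDC20 are lower with BIX in all 4 backgrounds, TOP2A in 3, and PTTG1 and UBE2C are higher in U2OS (254 against 198 FPKM for UBE2C in vector cells) and lower in L929.

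By background, members at least 2-fold lower with BIX were 3 of 43 in vector cells (4.31% of all genes) and 4 of 43 in ATG5 KD-labelled cells (3.7%). They were 22 of 42 in cGAS WT cells (6.15%) and 11 of 42 in cGAS KO-labelled cells (9.86%). No member was 2-fold higher in any of them, against 6.36%, 8.06%, 7.42% and 13% of all genes. The median log2 difference was -0.24 in vector, -0.36 in ATG5 KD-labelled, -1.01 in cGAS WT and -0.58 in cGAS KO-labelled cells, with all-gene medians of 0.00, 0.01, -0.04 and -0.04. All 42 members lay below 0 in cGAS WT cells and 30 lay below 0 in all 4 backgrounds. With columns scaled to equal sums the all-gene medians were -0.12, -0.21, -0.12 and -0.14, and the member medians -0.37, -0.60, -1.10 and -0.69.

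The lowest members in the U2OS backgrounds were SPC24, ESPL1, KIF20A and TOP2A in both. In cGAS WT cells they were NUF2, NDC80, CDC25C and KIF20A, and in cGAS KO-labelled cells NUF2, KIF20A, CDC25B and DLGAP5. CDC25C, a phosphatase that activates CDK1 at entry, gave 7.76 and 8.42 FPKM in vector cells, 10.6 and 10.2 in ATG5 KD-labelled cells, 14.4 and 4.68 in cGAS WT cells and 14.7 and 5.72 in cGAS KO-labelled cells. Across the 42 members, differences in vector and ATG5 KD-labelled cells had a Pearson r of 0.97, those of the L929 pair 0.81, and pairs across lines 0.14 to 0.23. These are descriptions over genes that share libraries, transcript lengths and, within a pair of the same line, the cell line.

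The difference between the lines was tested in the same fit, as the mean U2OS difference minus the mean L929 difference. The tables come from different species and were made separately, so the comparison is of ratios within each. Its spread is that between 2 genotypes of a line. The p-values of this test are also too small to the extent that these are not independent. The difference was higher in U2OS than in L929 for 15 members and lower for 1, SPC24; of all genes, 15.5% and 11.3% passed in these directions. The 15 are PTTG1 (log2 1.25), NUF2 (1.44), MAD2L1 (1.00), CDC25C (1.36), PLK1 (1.01), UBE2C (1.21), KIF2C (0.78), DLGAP5 (0.67), BUB1B (0.67), TTK (0.90), CCNA2 (0.83), CDK1 (0.79), NDC80 (0.90), CCNB1 (0.69) and FOXM1 (0.47). By role they are 6 of 10 entry genes, 3 of 5 checkpoint genes, 2 of 7 kinetochore genes, 2 of 4 anaphase genes and 2 of 6 motors, with 0 of 4 passenger genes and 0 of 5 cytokinesis genes. In limma at an unadjusted p under 0.05, the last 2 groups gave 1 and 0; over all genes 43.4% were past it. With 1 background left out, its line keeps 1 value, and the spread of the fit comes from the other line alone. How far these calls depend on a single background can therefore not be tested that way. The CCNA2 row is joined with BBS7 in the ATG5 table, that of CCNB2 with RNF111, and the mouse FOXM1 row with 4933413G19Rik.

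**Figure D4:**
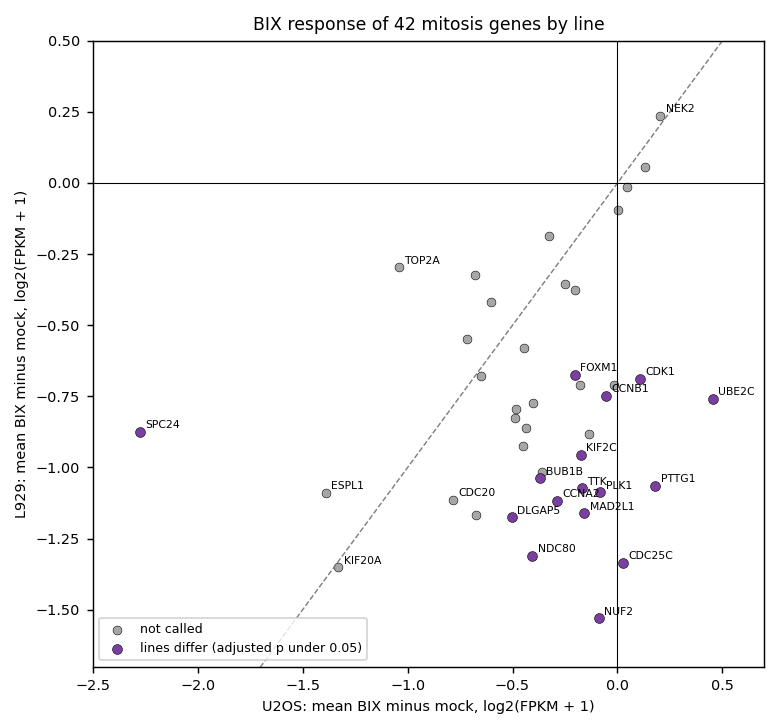
Mean BIX minus mock difference in log2(FPKM + 1) of 42 members in U2OS (x axis) and L929 (y axis); the dashed line marks equal differences and purple points passed the test of the difference. SPC24 lies far to the left of the line, KIF20A on it, and NUF2, CDC25C, PTTG1 and UBE2C to the right, near or above 0 in U2OS.

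Genotypes were compared within a treatment on single values, with no test. In mock U2OS no member was 2-fold apart between ATG5 KD-labelled and vector cells (0.968% of all genes), and with BIX none was (1.88%). The members' median difference was 0.25 in mock, with 40 of 43 above 0, and 0.30 with BIX, with 36 above 0. All-gene medians were 0.01 in mock and 0.03 with BIX, with 6438 of 12395 and 6545 of 12167 genes above 0. The members' medians depend on the scaling: with columns scaled to equal sums they were 0.15 and 0.09, with 34 and 27 members above 0. With centring on the median gene, 40 and 35 members were above 0. BIRC5 showed the largest difference in both, 59.3 against 92.6 FPKM in mock and 41.9 against 70.2 with BIX. The BIX difference in ATG5 KD-labelled less that in vector cells was near 0: its median was 0.01, as over all genes, and no member differed by 0.5 or more, against 5.43% of all genes.

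In mock L929 no member was 2-fold apart between cGAS KO- and WT-labelled cells (7.83% of all genes), and the median was -0.01, with 21 of 42 above 0. With BIX, 2 members were at least 2-fold higher in cGAS KO-labelled cells, NUSAP1 (33.9 against 12.2 FPKM) and CCNB2 (58.1 against 27.7), against 11.7% of all genes apart. The members' median with BIX was 0.26, with 36 of 42 above 0. All-gene medians were -0.03 in mock and 0.03 with BIX. The BIX difference in cGAS KO-labelled less that in WT cells had a median of 0.36, with 37 of 42 above 0, against an all-gene median of 0.04 with 53.8% above 0. A difference of at least 0.5 was seen in 10 of 42 members, 23.8%, and in 28.3% of all genes, so that share was no higher in the members. The largest were NUSAP1 (1.03), KIF11 (0.96), the motor that separates spindle poles, and TOP2A (0.79). The macrophage marker Cd68 also moved with these groups, from 41.2 (mock) to 80.3 FPKM (BIX) in cGAS WT and from 5.11 to 29.6 in cGAS KO-labelled cells. It was the only 1 of 4 leukocyte markers to reach 1 FPKM, with Ptprc under 0.1, and the summed list ran from 5.2 to 80.7 FPKM. The summed 7 mesenchymal markers were 2342 (mock) and 1711 (BIX) FPKM in cGAS WT and 3323 and 2246 in cGAS KO-labelled cells. In each, 5 of the 7 were lower with BIX. Cd44 was higher in both (68.8 and 97.1, 40.3 and 67.4), Fn1 in cGAS WT (18.6 and 20.7) and Pdgfrb in cGAS KO-labelled cells (35.8 and 45.8). In mock, 5 of the 7 were higher in cGAS KO- than in WT-labelled cells and 2 were lower. Fn1 was 348 against 18.6 FPKM and Col1a2 486 against 49.4. The part of these markers in the result, and of the lower depth of the cGAS WT BIX library, was not tested.

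Other genes of the pathway were counted from lists in the same fit over 4 backgrounds, in which 10.3% of all genes fell and 11.6% rose. Among 24 inner kinetochore and KNL1-MIS12 genes 6 fell and 0 rose, led by CENPI (log2 -1.10) and CENPM (-0.99), both of the constitutive centromere network. Among 8 condensin genes 4 fell and 0 rose, led by NCAPD2 (-0.96) and NCAPH (-0.86). Of 34 other mitotic kinases and regulators 9 fell and 0 rose, led by CCNF (-1.52) and CIT (-0.94), the citron kinase of cytokinesis. The list medians were -0.30, -0.53 and -0.48. Among 17 anaphase-promoting complex subunits and partners 3 fell and 1 rose, with FZR1 (-0.74, adjusted p = 0.0991) and ANAPC2 (-0.60) the furthest from 0. Among 12 other checkpoint partners 1 fell, KNTC1 (-0.88), and SGO1 was next at -0.42 (adjusted p = 0.152). Among 11 cohesin genes 2 fell and 2 rose, led by ESCO2 (-0.92) and WAPL (0.66).

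Of 12 genes of the MuvB, DREAM and B-MYB complexes, 3 fell and 3 rose, against 10.3% and 11.6% of all genes. LIN37 (-0.97) and RBL2 (-0.83) were the furthest from 0. MYBL2 (B-MYB) gave 151 (mock) and 155 (BIX) FPKM in vector cells, 159.7 and 177 in ATG5 KD-labelled cells, 32.6 and 31.7 in cGAS WT cells and 29.0 and 21.7 in cGAS KO-labelled cells. MKI67, the proliferation marker Ki-67, gave 40.5 and 35.0, 41.1 and 33.6, 70.6 and 31.9, and 93.7 and 57.6. In DNA replication and S phase, a list of other cell cycle genes, 16 of 44 fell and 0 rose with a median of -0.51. The mitosis genes gave a like count and median (16 of 42, -0.60), and the lists were not tested against each other. MCM5 (-0.95), of the replicative helicase, and POLD1 (-1.14), a polymerase subunit, led it.

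CDKN1A (p21), the CDK inhibitor, gave 107 (mock) and 322 (BIX) FPKM in vector cells, 108 and 412 in ATG5 KD-labelled cells, 106 and 437 in cGAS WT cells and 36.3 and 231 in cGAS KO-labelled cells. All 4 BIX values lay above all 4 mock values (log2 2.04, adjusted p = 0.00632, limma). On its list of 13 tested CDK inhibitors, G1 cyclins and related genes, 4 rose and 1 fell, against 11.6% and 10.3% of all genes. The list median was 0.21, with 8 of 13 above 0. The 2 largest differences were GADD45A (3.21) and GADD45B (2.36), growth arrest genes.

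After SETDB1 knockout no member passed the test. The 2 WT, 2 KO1 and 2 KO2 libraries were fitted with limma over 12546 genes. With both knockouts averaged and set against WT, 0 members rose and 0 fell, against 2.46% and 0.781% of all genes; at an unadjusted p under 0.05 there were 0 and 2, against 5.74% and 6.11%. The median log2 difference was -0.01 for members and -0.01 for all genes. KO1 against WT gave 0 (2.4% of all genes in either direction), KO2 against WT gave 0 (2.41%) and KO2 against KO1 gave 0 (0%), with 1, 2 and 0 members at an unadjusted p under 0.05, against 9.57%, 9.88% and 1.63% of all genes.

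SPC24 was the lowest member: 21.9 and 21.9 FPKM in WT, 16.9 and 14.6 in KO1 and 18.3 and 15.9 in KO2. The means were 21.9 ± 0.00615 in WT, 15.8 ± 1.62 in KO1 and 17.1 ± 1.72 in KO2 (SD, n = 2). All 4 KO libraries lay below both WT libraries, and KO1 and KO2 overlapped each other. The log2 difference was -0.40 (SE 0.102) with an adjusted p of 0.061 in limma, so it did not pass. It passed in 3 of 13 other settings: with a replicate block (adjusted p = 0.0328), without KO1 replicate 1 (0.0421) and without KO2 replicate 1 (0.0438). Without a WT library the adjusted p was 0.234 or 0.303.

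BIRC5 was next lowest, with 113 and 117 FPKM in WT, 102 and 99.4 in KO1 and 103 and 90.9 in KO2 (log2 -0.22, adjusted p = 0.354, limma). UBE2C was the highest member, with 188 and 209 in WT, 256 and 212 in KO1 and 238 and 224 in KO2 (log2 0.22, adjusted p = 0.462). Neither overlapped WT, and neither passed. In all, 3 members (SPC24, BIRC5 and KIF4A) were lower in all 4 KO libraries than in both WT libraries, and 2 (UBE2C and HMMR) higher. This holds for 11.2% and 10.2% of all genes, against 3 and 2 of 43 members.

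**Figure D5:**
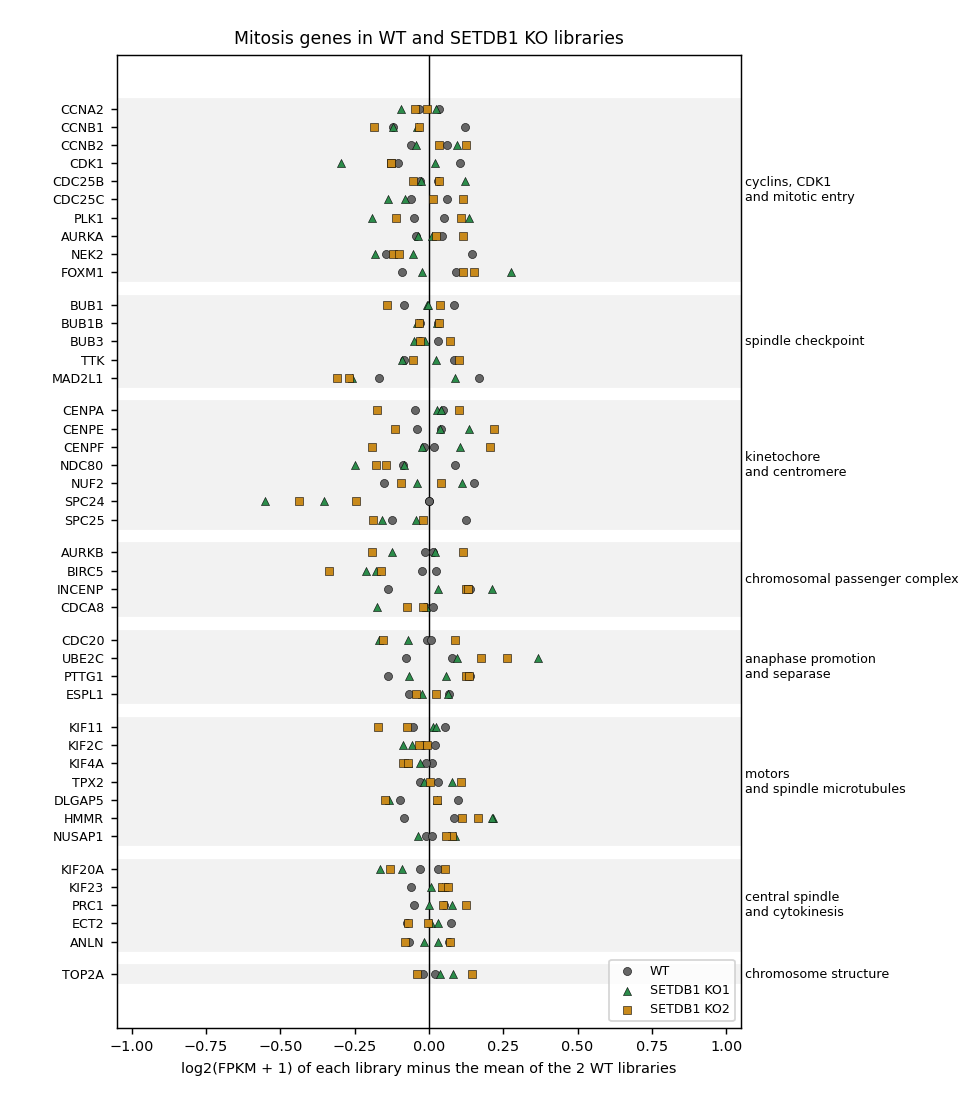
log2(FPKM + 1) of each of the 6 libraries minus the mean of the 2 WT libraries, 1 row per member and grouped by role. Most points lie within 0.25 of 0 in WT and KO alike; the 4 SPC24 points of the KO libraries lie to the left of WT, with a mean difference of -0.40.

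CDKN1A in the SETDB1 table gave 94.3 and 98.8 FPKM in WT, 99.8 and 98.3 in KO1 and 103 and 103 in KO2. MYBL2 gave 209 and 175, 204 and 162, and 177 and 174 in the same order. Both overlap between WT and at least 1 KO, and in none of the 7 other pathway lists or the 2 comparison lists did a gene pass limma's test. At an unadjusted p under 0.05 the 9 lists gave 0 higher and 5 lower of 180 tested entries, against 5.74% and 6.11% of all genes, and their medians ran from -0.10 to 0.05.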

How the data were processed

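RNA-seq gene tables of 14 samples were used; 8 ChIP samples were not used here. Per the submitters' processing notes, FastQC, cutadapt, TopHat2 and Cufflinks were applied, and the notes name the builds hg19, GRCh37, mm10 and GRCm38; the sources name no versions and no strand setting. The authors deposited FPKM values per gene, whose columns summed to between 445281 and 564050 before short RNAs (1959, 1888 and 1159 genes) were left out. The scaling to equal sums used columns without them. Rows that join several genes in 1 locus were kept. Sequencing was paired-end, per the labels' protocols.

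Here, log2(FPKM + 1) values of genes with at least 1 FPKM in 2 or more libraries were fitted with limma 3.58.1 (trend) in R 4.3.3, with the Benjamini-Hochberg adjustment over all genes and a threshold of 0.05. Adding 1 FPKM understates differences of low genes. Single-value comparisons used genes with at least 1 FPKM in 1 or both values, a 2-fold threshold and no test. Human and mouse rows were joined by symbol (14902 shared). Depth is unknown beyond the ratios given, so no counting interval can be given. The fit was tested on simulated data, in which the 4 background differences varied independently around the same effect. That run does not cover backgrounds of a line that resemble each other, or lines that respond differently. Alternatives were a pseudocount of 0.1, other filters (none, 5 FPKM), centring, a replicate block, joined loci left out, line as a term, leaving out each library or background and, added after seeing the data, columns scaled to equal sums.

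The members, roles and lists were chosen with earlier results of these data known. Values in every sample are given for the 12 called members with the largest difference, the 4 lowest and 2 highest members of each BIX comparison and the member of each role with the highest mean FPKM over all 14 values; of other lists the 2 genes furthest from 0 are named, plus CDKN1A, MYBL2 and MKI67.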

Additional observations from a re-analysis of the deposited data

Results flagged for a closer look

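The BIX response of 16 of 42 members differed between the U2OS and L929 lines by the test of the difference itself (limma, adjusted p under 0.05). Of all genes, 26.8% passed the same test, 15.5% higher in U2OS and 11.3% lower. For SPC24 the difference was lower in U2OS than in L929 by 1.40 on the log2 scale (-1.40). Higher in U2OS were NUF2 (1.44), CDC25C (1.36), PTTG1 (1.25), UBE2C (1.21), PLK1 (1.01) and MAD2L1 (1.00). Smaller differences were those of NDC80 (0.90), TTK (0.90), CCNA2 (0.83), CDK1 (0.79), KIF2C (0.78), CCNB1 (0.69), DLGAP5 (0.67), BUB1B (0.67) and FOXM1 (0.47). In each line the test rests on 2 backgrounds with 1 value per group. Its p-values measure the spread between genotypes of the same cell line, and not how repeatable the response of a line is. Species, line and table cannot be told apart.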

How the results depend on the processing

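The count of members that fell with BIX over 4 backgrounds, 16, was 9 with no filter on low values, 34 with line as a term, 30 with columns scaled to equal sums, and 3 to 11 when 1 background was left out; all called members were lower in each of these. Over all genes, 10.3% fell, and in these settings 4.77%, 28.4%, 17.4% and 0.862% to 4.9%. The count was 16 with a pseudocount of 0.1, 16 with centring and 19 with a filter of 5 FPKM. Of all genes, 10.4%, 10.3% and 12.8% fell in these settings. The 16 members that differed between the lines (26.8% of all genes) became 10 with no filter (15.8%) and 0 to 26 (0% to 43.3%) when 1 background was left out; leaving out either U2OS background left 0 of all genes past the threshold, with 1 value and so no spread on that side. No member called in either test changed sign under these settings.

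No SETDB1 contrast called a member, except 1 (SPC24) with the replicate block for the KO mean and 1 for KO1 against WT, and 0 to 1 without 1 library for the KO mean. With the replicate block, 4.03% of all genes passed for the KO mean and 3.12% for KO1 against WT. The replicate numbers were not shown to pair samples: deviations from group means correlated at 0.373 for WT with KO1, 0.00358 for WT with KO2 and 0.201 for KO1 with KO2.

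With columns scaled to equal sums, BIX medians of the members were -0.37 in vector, -0.60 in ATG5 KD-labelled and -0.69 in cGAS KO-labelled cells, and the genotype medians 0.15 and 0.0934 for ATG5 KD less vector (mock, BIX) and 0.10 and 0.36 for cGAS KO less WT. The cause was not tested. Leaving out joined loci gave -0.26 in ATG5 KD-labelled cells. With 1 or 2 values per group, the number of libraries limits precision.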
